A study of Homo sapiens with 2 samples.

Results

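The genes described here are 35 members of the NF-kappaB pathway and of Toll-like receptor signalling, chosen by name from what is known of the pathway, with earlier results of these data in view. Peaks of a Flag chromatin immunoprecipitation were taken as theirs where the authors' annotation gave the member's symbol. Of the 35 members, 12 had a peak, and together they had 14 of the 6373 peaks in the list. The series has 2 libraries from PLC/PRF/5, an established line of human liver cancer cells. Both came from cells that carry a lentivirus for overexpression of the zinc finger protein ZFP64. The first was pulled down by an anti-Flag antibody (Flag ChIP), and the second is chromatin with no antibody (input). Each is a single library, so that no value has a replicate error and no test between conditions could be made. Untagged cells put through the Flag ChIP were not analysed here, and signal that the antibody gives without its tag cannot be told apart from ZFP64. Expression was not measured, and the liver identity of the line cannot be read from a peak list.

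In NF-kappaB signalling, dimers of the Rel proteins are held in the cytoplasm by inhibitor proteins, until kinases phosphorylate the inhibitor and it is destroyed. Toll-like receptors sense microbial products and pass the signal through adaptors such as MyD88 and TRIF to these kinases and to the interferon regulatory factors. In the liver the pathway shapes inflammation, the survival of hepatocytes and the recruitment of macrophages. In mouse macrophages, Zfp64 has been described as a factor that aids p65, the product of Rela, in responses through Toll-like receptors.

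A promoter peak, one that the authors' annotation places within 3 kb of a transcription start, was found at 10 of the 35 members (28.6%, exact binomial 95% interval 14.6 to 46.3). Over all 19974 protein-coding genes the share was 20.3%, which lies inside that interval. Peaks of any class were assigned to 12 members (34.3%, 19.1 to 52.2), against 23.4% of all protein-coding genes. The members with a promoter peak were the subunit genes NFKB1, REL and RELA, the inhibitor genes NFKBIE and NFKBIA, the kinase genes MAP3K7 and TBK1, and the adaptor genes TRAF3, TIRAP and TRAF2. TLR5 and IRF7 had a peak outside promoters. No peak was assigned to the other 23. These intervals, like the others below, cover counting error only.

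By role, a promoter peak was found at 3 of 5 NF-kappaB subunits, 2 of 4 inhibitors, 2 of 10 kinases and kinase partners, and 3 of 6 adaptors. None of the 7 receptors had one, with an exact binomial 95% interval from 0 to 41.0%. Neither of the 2 interferon regulatory factors had one, and nor did TNF, the cytokine that both triggers the pathway and is made in response to it. With groups this small, each interval was wide, from 14.7 to 94.7% for the subunits and from 2.52 to 55.6% for the kinases, and the share over all protein-coding genes lay inside each of those with at least 4 members.

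**Figure D1:**
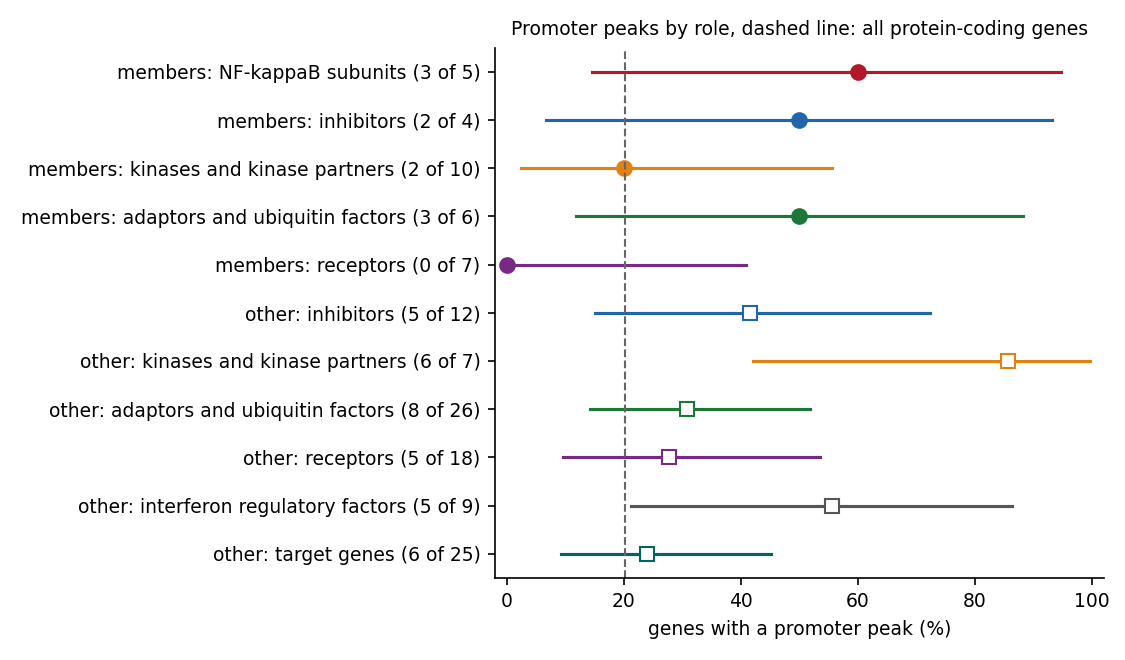
Share of genes with a promoter peak in the Flag ChIP, in percent, by role, for members (filled circles) and other genes of the pathway (open squares), with exact binomial 95% intervals as lines. The dashed line is the share over all protein-coding genes, 20.3%, and the 7 receptors among the members sit at 0.

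The fold of a peak is the authors' own ratio of ChIP over background at its summit. The highest promoter fold of the 10 members lay between 3.48 (TRAF2) and 17.1 (MAP3K7), with a median of 7.90. Over all 4049 protein-coding genes with a promoter peak the median was 7.39 (quartiles 5.20 to 12.6), close to that of the members. Of the members, 3 (8.57%) had a fold of 10 or more, against 6.97% of all protein-coding genes. MAP3K7 ranked 664 of the 4049 genes, TRAF3 769 and NFKB1 882. At the other end, TRAF2 ranked 3973, above 1.83% of the genes. The members thus spread over the range of folds without reaching its highest values.

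**Figure D2:**
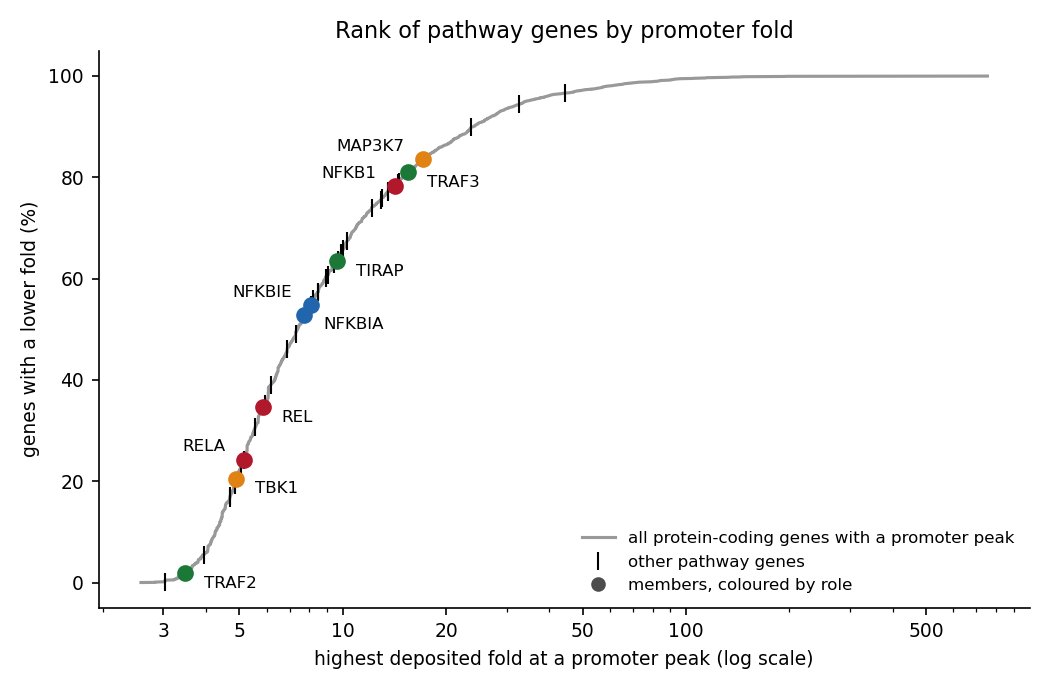
Highest deposited fold at a promoter peak (log scale) against the percent of protein-coding genes with a lower fold, for all 4049 genes with a promoter peak (grey line), the 35 other pathway genes (ticks) and the 10 members (points, coloured by role). MAP3K7, TRAF3 and NFKB1 lie above 78% of the genes, and TRAF2 lies near the lower end.

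The promoters of 5 members are shown, so that their kappaB-like letters can be read. They are those with the highest promoter folds among members that have an entry in the RefSeq promoter table (GRCh38.p14). TIRAP and NFKBIE have no entry there. Each run goes 5′ to 3′ in the direction of transcription, from 250 bases before a RefSeq start to 50 from that start on. Capitals mark each match to a loose form of the kappaB site, GGG and CC with any 5 bases between them, on either strand, with overlapping matches joined. The windows lie at chr6:90587023-90587322 (minus strand, MAP3K7), chr14:102777199-102777498 (plus, TRAF3), chr4:102501684-102501983 (plus, NFKB1), chr14:35404700-35404999 (minus, NFKBIA) and chr2:60881324-60881623 (plus, REL).
MAP3K7: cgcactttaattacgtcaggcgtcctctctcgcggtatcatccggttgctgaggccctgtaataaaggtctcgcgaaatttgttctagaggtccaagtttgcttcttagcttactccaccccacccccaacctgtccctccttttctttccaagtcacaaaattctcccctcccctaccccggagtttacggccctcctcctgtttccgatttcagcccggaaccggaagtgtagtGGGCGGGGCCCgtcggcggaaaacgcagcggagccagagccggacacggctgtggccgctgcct
TRAF3: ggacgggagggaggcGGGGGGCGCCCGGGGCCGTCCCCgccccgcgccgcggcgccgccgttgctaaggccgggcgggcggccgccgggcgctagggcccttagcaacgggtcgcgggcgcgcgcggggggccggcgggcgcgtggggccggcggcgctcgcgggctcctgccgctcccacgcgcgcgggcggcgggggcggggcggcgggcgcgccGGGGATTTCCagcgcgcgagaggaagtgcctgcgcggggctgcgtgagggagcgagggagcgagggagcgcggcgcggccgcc
NFKB1: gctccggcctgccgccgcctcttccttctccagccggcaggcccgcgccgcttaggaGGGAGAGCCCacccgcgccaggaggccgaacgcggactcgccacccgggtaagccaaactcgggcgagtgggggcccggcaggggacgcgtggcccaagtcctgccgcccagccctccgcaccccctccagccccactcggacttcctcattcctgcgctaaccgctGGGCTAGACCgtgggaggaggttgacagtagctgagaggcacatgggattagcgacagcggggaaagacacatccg
NFKBIA: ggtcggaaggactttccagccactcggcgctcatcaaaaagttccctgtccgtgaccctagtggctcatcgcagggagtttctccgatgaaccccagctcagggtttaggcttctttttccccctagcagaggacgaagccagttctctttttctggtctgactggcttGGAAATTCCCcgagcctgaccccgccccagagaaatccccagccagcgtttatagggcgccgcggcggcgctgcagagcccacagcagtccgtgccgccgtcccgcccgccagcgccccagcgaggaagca
REL: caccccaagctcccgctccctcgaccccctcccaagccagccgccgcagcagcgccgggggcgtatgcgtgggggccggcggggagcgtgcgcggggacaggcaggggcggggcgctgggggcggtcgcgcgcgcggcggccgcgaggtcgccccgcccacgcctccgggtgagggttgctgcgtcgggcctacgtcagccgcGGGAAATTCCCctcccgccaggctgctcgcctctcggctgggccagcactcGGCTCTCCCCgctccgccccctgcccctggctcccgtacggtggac

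These windows did not lie under the peaks to the same extent. The NFKB1 peak covered all 300 bases of its window, and the NFKBIA peak covered 250. The MAP3K7 peak covered 8 bases, and the peaks of TRAF3 and REL began 27 and 19 bases past the end of their windows, further along the gene. In NFKBIA, whose promoter is a textbook target of NF-kappaB, the marked run GGAAATTCCC lay from 81 to 72 bases before the start, as counted with the start as 0. REL held GGGAAATTCCC from 47 to 37 bases before its start, and TRAF3 held GGGGATTTCC from 33 to 24 bases before. Each of these runs holds a match to a stricter kappaB consensus, whose letters are not given here. The MAP3K7 window and the NFKB1 window shown hold no match to it, though the window at the outer NFKB1 start holds 1. The loose pattern was in 66.6% of the 22156 windows of protein-coding genes, so its presence sets no promoter apart. A match to letters is a description and shows neither a site in use nor a link to the Flag ChIP.

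Among the NF-kappaB subunits, NFKB1 had the strongest peak. NFKB1 encodes p105, which is processed to the p50 subunit. Its peak ran from 102501373 to 102502299 on chromosome 4 (hg38, 927 bp), with a fold of 14.2 (q-value 9.92e-32). Solving the deposited fold and p-value together for a whole number of fragments gave 34 ChIP fragments at the summit (23.5 to 47.5, an exact Poisson 95% interval) against an expected background of 1.47. That background is close to the lowest of the list, and the ratio of the 2 values was 23.1. The RefSeq table gives 2 starts for NFKB1, and the peak covered the inner one, with its summit 139 bp upstream of it. The outer one lay just outside the peak.

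REL encodes c-Rel, a subunit best known from lymphocytes. It had 2 peaks, both classed as promoter. The first, from 60881643 to 60881993 on chromosome 2, covered the annotated start and had a fold of 5.85, with 18 fragments (10.7 to 28.4) over 2.25 of background. The second, from 60882892 to 60883175, had its summit 1316 bp downstream of the same start and a fold of 5.42, with 16 fragments (9.15 to 26.0) over 2.14. The intervals of the 2 peaks overlap over most of their length, so neither peak of REL stood above the other by more than its counting error. REL ranked 2648 of the 4049 genes.

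RELA encodes p65, the main activating subunit. Its single peak, from 65662975 to 65663347 on chromosome 11, had a fold of 5.16 (q-value 6.91e-07), with 16 fragments (9.15 to 26.0) over 2.30. The peak covered the start given in the deposited annotation, 65663094. The RefSeq table instead has starts of RELA at 65662916 and, upstream, at 65663857, neither of them covered, and the summit lay at -241 bp from the inner one (negative values are upstream). The same peak overlapped the promoter window of RELA-DT, a transcript on the opposite strand, so that the 2 cannot be told apart there. NFKB2 and RELB, the subunits of the noncanonical arm, had no peak, and the nearest lay 29.7 and 37.5 kb away, at CUEDC2 and ZNF296.

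Of the inhibitors, NFKBIA and NFKBIE had peaks of similar strength. NFKBIA encodes I-kappaB-alpha, which is itself induced by NF-kappaB and closes the loop. Its peak, from 35403799 to 35404949 on chromosome 14, was the widest assigned to a member (1151 bp, wider than 83% of promoter peaks), with a fold of 7.72 and 27 fragments (17.8 to 39.3) over 2.62. NFKBIE encodes I-kappaB-epsilon, and its peak from 44265201 to 44265959 on chromosome 6 had a fold of 8.08, with 23 fragments (14.6 to 34.5) over 1.97. The order of the 2 genes turned with the measure, since NFKBIE had the higher fold and NFKBIA the more fragments, and their fragment intervals overlap. A further peak, assigned to SLC35B2, lay 510 bp beyond the other end of NFKBIE, with a fold of 6.35.

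NFKBIB, the third I-kappaB gene, and TNFAIP3, which encodes the ubiquitin-editing enzyme A20, had no peak. The nearest peak lay 65.9 kb from NFKBIB and 279 kb from TNFAIP3. The TNFAIP3 promoter, also known as a target of NF-kappaB, held 2 matches to the strict kappaB consensus.

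The kinase genes, the largest role with 10 members, held both the strongest peak of the members and the most members without an assigned one. MAP3K7 encodes TAK1, the kinase that activates the I-kappaB kinases. Its peak ran from 90586024 to 90587030 on chromosome 6, with a fold of 17.1 (q-value 2.15e-46). There were 47 ChIP fragments at the summit (34.5 to 62.5) over 1.80 of background, and their ratio was 26.1 (19.2 to 34.7). The summit lay 399 bp downstream of the RefSeq start, which the peak did not cover. The same peak overlapped the promoter window of LOC124901363, so that it cannot be assigned to MAP3K7 alone. TBK1 encodes a kinase that phosphorylates interferon regulatory factors, and its peak from 64452199 to 64452594 on chromosome 12 was weaker, with a fold of 4.89 and 17 fragments (9.90 to 27.2) over 2.68. The fragment intervals of MAP3K7 and TBK1 do not overlap. TAB1 and TAB2, which encode the partners of TAK1, and IRAK4, which acts just after MyD88, had no peak. The nearest lay 49.3 kb from TAB1, 306 kb from TAB2 and 16.1 kb from IRAK4.

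Peaks that touch a member can carry another gene's name, because the annotation names only the nearest start. IRAK1, which encodes a kinase that relays the signal from MyD88, was the clearest case. A peak from 154018321 to 154020549 on chromosome X was assigned to the microRNA gene MIR718, and it covered the RefSeq start of IRAK1, with its summit at -214 bp. Its fold was 15.9 and its q-value 1.13e-39, with 41 fragments (29.4 to 55.6) over 1.64. By fold it would stand second among the members, after MAP3K7. It was 2229 bp wide, wider than 98.5% of promoter peaks and than any peak assigned to a member. Which of the 2 starts it belongs to cannot be told apart from the peak list.

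The I-kappaB kinase complex gave weaker cases. A peak with a fold of 3.31, assigned to LOC101929897, overlapped one end of IKBKB, the catalytic beta subunit, with 11 fragments (5.49 to 19.7) over 2.62. The end it covered is the one of lower coordinate, 42271302 on chromosome 8. IKBKB has no RefSeq promoter window, so the summit was not measured from its start. Only 0.958% of promoter peaks had lower folds. IKBKG, the regulatory subunit NEMO, had no assigned peak. The alpha subunit gene CHUK had a peak 731 bp beyond its end, assigned to ERLIN1 (fold 3.86), and IKBKE had one 2730 bp beyond its end, assigned to RASSF5 (fold 4.76). The starts of CHUK and IKBKE lay 44188 and 29483 bp from these summits.

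**Figure D3:**
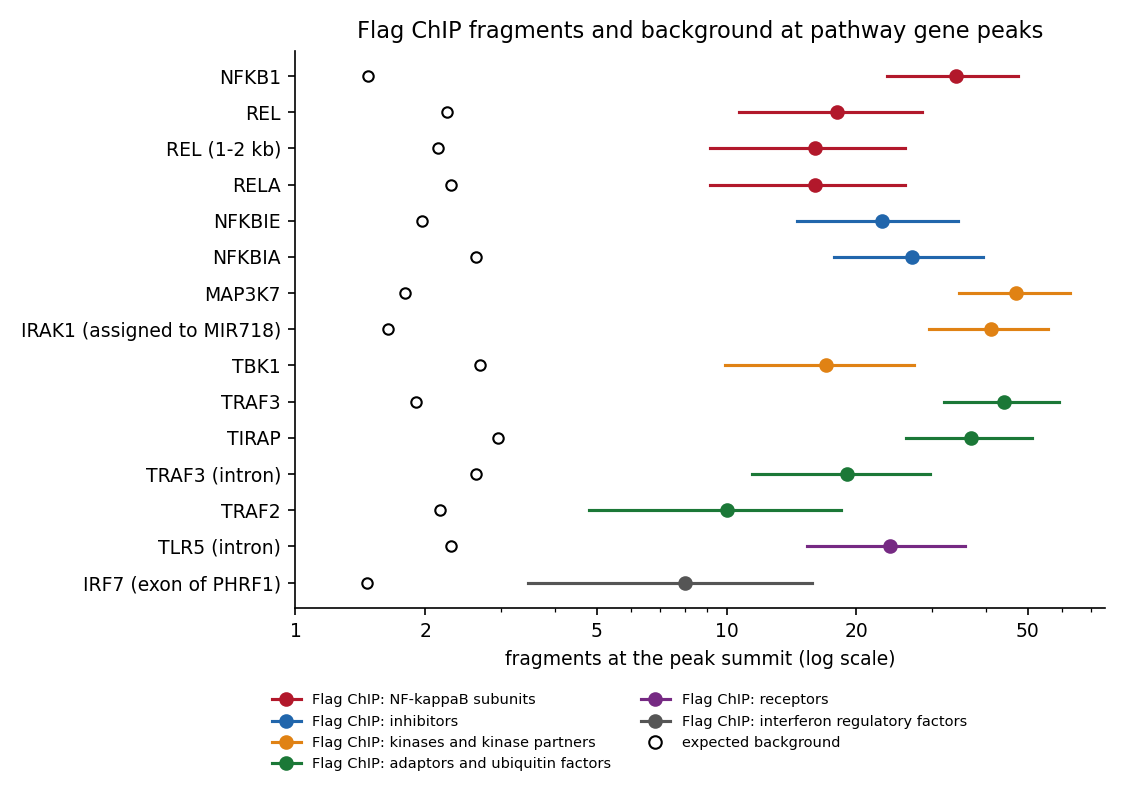
ChIP fragments at the summit (filled points, log scale) with exact Poisson 95% intervals (lines) and expected background (open circles), recovered from the deposited fold and p-value, for the 14 peaks assigned to members and the peak at the IRAK1 start that was assigned to MIR718. Points are coloured by role. MAP3K7, TRAF3 and IRAK1 had the most fragments, 47, 44 and 41, and IRF7 the fewest, 8.

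Among the adaptors, TRAF3 and TIRAP had strong peaks. TRAF3 encodes an adaptor and ubiquitin ligase that restrains the noncanonical arm and links TRIF to TBK1. Its promoter peak, from 102777526 to 102778351 on chromosome 14, had a fold of 15.5 (q-value 3.81e-41), with 44 fragments (32.0 to 59.1) over 1.90. A second peak in an intron of TRAF3, from 102878743 to 102879112, had a fold of 5.52, with 19 fragments (11.4 to 29.7) over 2.62, fewer than at the promoter and with no overlap of the intervals. That summit lay 3164 bp downstream of an annotated inner start of the gene and 101402 bp from its RefSeq start.

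TIRAP encodes the adaptor that brings MyD88 to the receptors at the membrane. Its peak, from 126282476 to 126283564 on chromosome 11, had a fold of 9.61 (q-value 3.73e-25), with 37 fragments (26.1 to 51.0) over 2.95, the highest background of the members' peaks. TRAF2 encodes an adaptor of the tumour necrosis factor receptors. Its peak, from 136884945 to 136885224 on chromosome 9, had a fold of 3.48 (q-value 0.0133), with 10 fragments (4.80 to 18.4) over 2.16. It was the weakest of the members' promoter peaks, and its nearer edge lay at -841 bp from the annotated start, inside the span that RefSeq gives the gene. MYD88, TICAM1 (which encodes TRIF) and TRAF6 had no peak. The nearest lay 192 kb from MYD88, 92.1 kb from TICAM1 and 2174 kb from TRAF6.

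**Figure D4:**
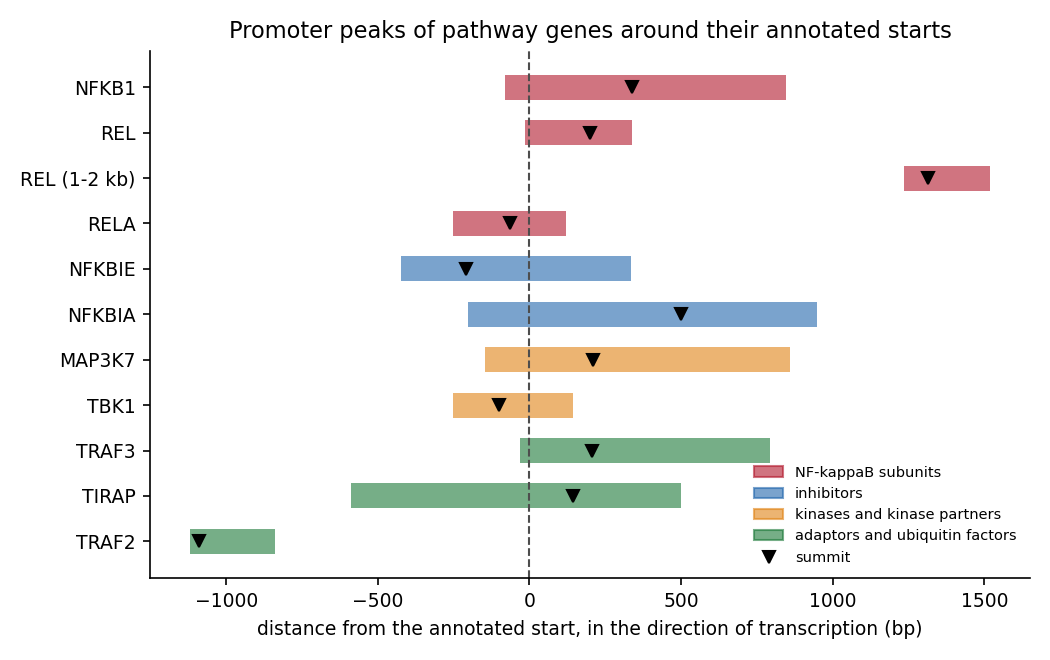
Extent of the 11 promoter peaks of members (bars, coloured by role) and their summits (triangles), in bp from the start given in the deposited annotation, with positive values downstream. Of the 11 peaks, 9 covered the start, and the REL peak at 1 to 2 kb and the TRAF2 peak did not.

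The 11 promoter peaks of the members lay near the annotated start, as the class requires. Their summits had a median position of 200 bp downstream of the annotated start (lowest -1088, highest 1316), against 179 bp for all 4905 promoter peaks. Of the members' summits 7 of 11 (63.6%) lay downstream, against 69.5% of all, and 9 of 11 peaks (81.8%) covered the annotated start, against 60.5%. The annotated start is the deposited one. Of the 9 promoter peaks whose gene has an entry in the RefSeq promoter table, only those of NFKB1 and NFKBIA covered the nearest RefSeq start. The median width of the members' promoter peaks was 759 bp (quartiles 362 to 967), against 573 bp (391 to 922). The median summit held 23 ChIP fragments over a median background of 2.16 in members, against 21 fragments over 2.08 in all promoter peaks. None of these differences was tested.

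Of the 7 receptors, 1 had an assigned peak. TLR5, the receptor for bacterial flagellin, had it in an intron, 13651 bp from the RefSeq start. It ran from 223129451 to 223129818 on chromosome 1, with a fold of 7.58 and 24 fragments (15.4 to 35.7) over 2.30, above 72.5% of peaks outside promoters. TLR1, TLR2, TLR3, TLR4, TLR6 and TLR9, which sense bacterial lipoproteins, double-stranded RNA, lipopolysaccharide or unmethylated DNA, had none. The nearest peak lay 13.3 kb from TLR9, 56.4 kb from TLR3 and 3068 kb from TLR4.

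IRF7, which encodes a factor that drives type I interferon, had a peak only by nearness. It lay in an exon of PHRF1, 2113 bp from IRF7, from 610159 to 610442 on chromosome 11, with a fold of 3.65 and 8 fragments (3.45 to 15.8) over 1.47. Its q-value of 0.0180 was the highest of the members. IRF3, a relative of IRF7, and TNF had no peak, and the nearest lay 16.9 and 33.2 kb away. In all, 18 members had neither an assigned peak nor any peak within 3 kb of the gene, and their nearest peak lay a median of 79.0 kb away (13.3 to 3068 kb).

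Counted without regard to the assigned name, 17 of the 35 members (48.6%, 31.4 to 66.0) had a peak in the gene or within 3 kb of either end, against 27.6% of all protein-coding genes. The members have a median length of 23.8 kb, against 24.2 kb for all protein-coding genes. The count takes in peaks at the start of a neighbour, as at CHUK, and was not set against the number of neighbours. Counted at RefSeq promoter windows alone, 5 of the 28 members with a window had a peak over it (17.9%, 6.06 to 36.9), against 15.7% of 15813 protein-coding genes. They were NFKB1, RELA, NFKBIA, MAP3K7 and IRAK1. The narrow rule leaves out 7 members with no window, 4 of which, NFKBIE, TIRAP, IKBKB and IRF7, had a peak under the wide rule.

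Members with and without a promoter peak overlapped in the composition of their promoters. The 10 windows of the 8 members that had both a promoter peak and a table entry had a median of 70.7% G and C bases (51.3 to 86.0%), against 65.0% (34.7 to 83%) in the 27 windows of 20 members without. Over all protein-coding genes the medians were 68.0% with a promoter peak and 60.7% without. CpG dinucleotides numbered a median of 35 in the windows of members with a promoter peak and 26 in those of members without. TRAF3 had the most, 61, and IRAK1, whose peak was assigned elsewhere, followed with 52. The fewest were in windows of TLR9, with 2, and of TLR3, TLR6 and IKBKE, with 5 each. Among windows of members with a promoter peak the fewest, 7, were at the outer RELA start, which the RELA peak did not reach. Windows were grouped by whether their gene had an assigned promoter peak, not by whether a peak lay over them. The peaks of REL, TRAF3, TBK1 and TRAF2 did not reach their windows, and the IRAK1 window, under a peak, counts among those without. The median share of G and C bases was higher for genes with an assigned promoter peak, among members as in all genes. The part of base composition in the result was not tested.

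**Figure D5:**
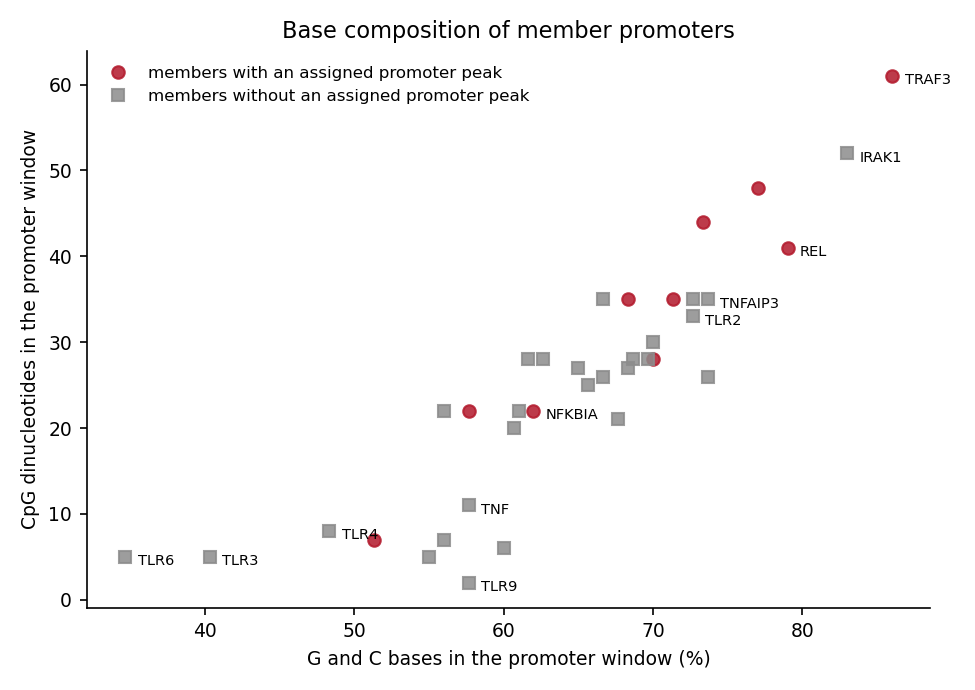
CpG dinucleotides against percent of G and C bases in RefSeq promoter windows of 300 bases, for 10 windows of 8 members with an assigned promoter peak (circles) and 27 windows of 20 members without one (squares). TRAF3 and IRAK1 lie highest, with 61 and 52 CpG, and TLR9 lies lowest, with 2.

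Motifs were searched on both strands of the same windows. The GC box GGGCGG was in 9 of the 10 windows of members with a promoter peak and in 17 of the 27 without, against 69.6% and 52.2% of windows of all protein-coding genes with and without one. The loose kappaB pattern, which can overlap the GC box, was in 10 of 10 and 23 of 27, against 76.1% and 63.7%. The ETS motif CCGGAAG was in 2 of 10 and 5 of 27 (12.6% and 12.9% in all genes), CCAAT in 3 of 10 and 7 of 27 (29.3% and 36.3%), and TATAAA in 1 of 10 and 2 of 27 (6.15% and 10.5%). The NRF1 motif, in its palindromic form, was in none of these windows (1.57% and 1.48% in all genes). The strict kappaB consensus was in 4 of 10 windows (NFKB1, NFKBIA, REL and TRAF3) and 7 of 27, against 15.3% and 11.8%. It was added after the other counts had been seen. Of these 4, the windows of REL and TRAF3 did not lie under their peaks, and the NFKB1 window was the one at the outer start. Windows of 1 gene overlap in part or share its surroundings, and none of these counts was tested.

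Of 97 other genes of the pathway, 35 had a promoter peak (36.1%, 26.6 to 46.5), against 20.3% of all protein-coding genes. Their median highest fold was 8.48, against 7.39 over all. Kinases and kinase partners had 6 of 7, led by IRAK2 (fold 32.7), a relative of IRAK1, then MAP3K3 (12.9), RIPK1 (10.03), the kinase at the tumour necrosis factor receptor, and MAP3K8 (9.03). Adaptors and ubiquitin factors had 8 of 26. The highest of these was UBE2N (44.3), which encodes the enzyme that builds the ubiquitin chains made by TRAF6, and next came MAVS (23.7), the adaptor of the RNA sensors, PELI3 (14.5) and BIRC2 (13.5). UBE2N had 116 ChIP fragments at its summit (95.9 to 139) over 1.64, more than any member.

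Inhibitors had 5 of 12, led by TNIP1 (14.5) and TNIP2 (12.1), which encode partners of A20, and then NFKBIZ (8.08) and NFKBID (5.93), which encode nuclear I-kappaB proteins. Other receptors had 5 of 18, with LTBR (13.6), NOD1 (9.68), IL1RAP (4.71) and IL1R1 (4.69) highest, and none of TLR7, TLR8 and TLR10 had a promoter peak. Interferon regulatory factors and their binding partners had 5 of 9, with IRF2BP2 (13.1), IRF1 (8.91), IRF2BP1 (7.81) and IRF2 (7.29) highest. Target genes of NF-kappaB had 6 of 25. The chemokine genes CXCL2 (10.3) and CXCL1 (9.43), the stress gene GADD45B (9.89) and SOD2 (8.19), which encodes a mitochondrial superoxide dismutase, were highest. CXCL8, IL6, ICAM1 and 16 others had none. The interval of the kinases ran from 42.1 to 99.6%. That of the interferon regulatory factors together with their binding partners ran from 21.2 to 86.3%, and IRF2BP1 and IRF2BP2 are among its 5 genes. The intervals of the remaining roles took in the share over all protein-coding genes. Among the members, kinases and kinase partners had 2 of 10 (2.52 to 55.6%). These lists, like the members, were chosen with earlier results of these data known. Genes on such a list are not a random draw, and no test was made.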

How the data were processed

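The input to every result was the annotated list of narrow peaks that the authors deposited for 1 Flag ChIP and 1 input library. Per the submitters' processing notes, which give no role or order, the tools were MACS2 2.2.7.1, Bowtie2 2.4.1, deepTools 3.5.0 and SAMtools, and the build was hg38. The fold (a ratio), p-value and q-value of each peak, its class and its nearest gene are as the authors deposited them, and no source used here names the annotation tool. All 35 members were found in the RefSeq gene table (GRCh38.p14), and 28 in its promoter table.

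Read totals were not used here. Under the peak caller's model, taken as a Poisson tail and a fold with a pseudocount of 1, the fold and p-value were solved for whole ChIP fragments and a background, which 6293 of 6302 peaks with a p-value above 0 met within 0.001 on the −log10 scale, all 14 peaks of members among them. The solver was tested on simulated data made under that model, which does not test the model itself. The interval of a ratio takes the background as fixed and does not allow for choosing the summit as the highest point. Counts were made with Python 3.11.15, pandas 2.3.3 and scipy 1.17.1.

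Members and lists were chosen with earlier results of these data known. All members and their peaks are named, with up to 4 other genes per role by promoter fold. The strict kappaB consensus was added after the other motif counts were seen. Of the peaks that touch a member under another gene's name, 1 is counted but not reported here.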

Additional observations from a re-analysis of the deposited data

How the results depend on the processing

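Of 19 alternatives over 5 results, 14 left a count within 1.5 times of the reported one, or a share or median within its interval, and 5 did not. With a −log10 q of at least 10, members with a promoter peak numbered 6 (against 11.6% of all protein-coding genes) and members with any assigned peak 7 (against 13.1%). Peaks in the gene or within 3 kb of either end gave 17 members (against 27.6%). Peaks over RefSeq promoter windows gave 5 members and 21 of the other pathway genes, of the 28 and 79 with a window (against 15.7%). Stricter thresholds keep fewer peaks and the windows hold fewer genes. The median fold of members' promoter peaks ran from 7.72 to 11.9. A fold of at least 5 leaves out TBK1 and TRAF2. The fewest fragments were 8 at IRF7 and 10 at TRAF2, and what depth limits was not tested. No paired analysis was possible because Flag ChIP and input have 1 library each.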

Other observations

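Other genes of the pathway, like IRAK1, had a peak at or near them that carried another gene's name. MALT1, which encodes a protease of antigen receptor signalling, had a peak over its RefSeq start with a fold of 41.7 and 150 fragments over 2.62, assigned to LOC101927322. RIPK2, which encodes the kinase behind NOD1 and NOD2, was overlapped by a peak with a fold of 27.1 and 66 fragments over 1.47, assigned to LOC101929709. Peaks assigned to FBXL8 and ABALON lay 1401 bp from TRADD (fold 6.18) and inside BCL2L1 (fold 4.15). They are given because the nearest-gene name would count these genes as having no promoter peak.

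A deposited table of gene identifiers without labels sets 85 genes beside 3401. Of the 35 members, 0 were among the 85 and 8 (22.9%) among the 3401. The 85 are few beside the 19974 protein-coding genes, so the 0 says little about the members. The share of all protein-coding genes among the 3401 was not counted, so the 8 cannot be called many or few. How either list was chosen is not labelled. In the peak list, a promoter fold of 5 or more was found at 8 of the 35 members and at 15.8% of all protein-coding genes. TBK1 and TRAF2, with folds below 5, were the members with a promoter peak that this threshold left out.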
